A study of Mus musculus with 10 samples.

Results

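The cochlear RNA of newborn control mice was described here from the 5 control libraries of a series of 10, across all 54532 genes of its tables. These 5 libraries were chosen by genotype label alone, and no test between genotypes was made. Each library held the cochlear soft tissue of 1 female mouse on postnatal day 1, with both ears combined after the thin bone around the cochlea had been taken off. The control genotype was Esrrg fl/fl, in which Esrrg, the gene of the nuclear receptor ERRγ, is flanked by loxP sites on both copies, with no Cre recombinase named in the labels. The other 5 libraries, from Esrrg fl/fl;Sox10-Cre mice of the same age and sex, were used for how values vary within them, for a check of the labels on Esrrg, and as values beside a few rankings. Neither the strain background nor wild-type animals without loxP sites are given in the labels, so the values are those of the floxed line.

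The cochlea turns sound into nerve signals. Its sensory hair cells stand among supporting cells under the tectorial membrane, an extracellular sheet, and are contacted by spiral ganglion neurons, which Schwann cells and satellite glia wrap. The stria vascularis, built from marginal, intermediate and basal cells, and the fibrocytes of the lateral wall keep the potassium-rich endolymph, while a cartilage capsule that is turning into bone encloses the organ. At birth the mouse cochlea is immature, since hearing begins only later in postnatal life.

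The control libraries held 37.4 ± 2.76 M counts (SD, n = 5, range 34.5 to 41.8 M, where M is mega), and 24160 to 26064 genes had at least 1 count in a library. Levels are given as FPKM, the authors' deposited measure of fragments divided by the length of the gene in kilobases and by the library total in units of 1000000, so that genes can be set side by side. Each ± value is the SD over the 5 libraries unless said otherwise. The Y-linked genes Ddx3y, Uty, Eif2s3y and Kdm5d, had 0 counts in each of the libraries, while Xist, the RNA of the inactive X chromosome, lay between 30.9 and 86.0 FPKM.

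One library stood apart from the rest. In control 2 the summed FPKM was 335389, against 276124 to 286800 in the other libraries. Its deviations ran against gene length, with a rank correlation of -0.601 across 13748 genes, where the other libraries lay between 0.286 and 0.384. Genes with less than 1 kb of exon sequence had a median log2 ratio of 0.45 in control 2 against the other controls, and genes above 4 kb one of -0.20. The source of this was not tested, and values without control 2 are given for the main measures of variation.

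Esrrg, the floxed gene, checks the labels only in part, because the count covers all exons. In control libraries 1 to 5 it lay at 9.01, 7.65, 9.77, 10.4 and 9.84 FPKM. In the libraries labelled cKO it lay at 17.5, 15.4, 12.6, 11.4 and 15.1 FPKM. Each library labelled cKO was thus above every control library. The share of all genes that separate the labels in this way was not counted, so this is not a result on genotype. A count over all exons does not show whether the part between the loxP sites was removed, so these values do not decide on the label. Those 5 are called the libraries labelled cKO below.

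The RNA of the control cochlea was concentrated in few genes and spread thinly over many. The 10 most abundant genes of a library held 10.5 ± 0.319% of its summed FPKM, the top 100 held 27.8 ± 1.63% and the top 1000 held 57.0 ± 2.60%. Counted from the top, 626 ± 104 genes held 50% of the summed FPKM (672 without control 2) and 6463 ± 420 genes held 90%. Control 2 was the most concentrated, with 442 genes holding 50%, and the other libraries lay between 652 and 691. Counted reads, which weigh long genes more, were less concentrated, with 1287 ± 102 genes holding 50% of the counts. Across the 20884 genes with a count in every library, mean FPKM ran from 0.00544 to 5552 FPKM, a span of 6.01 on the log10 scale.

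**Figure D1:**
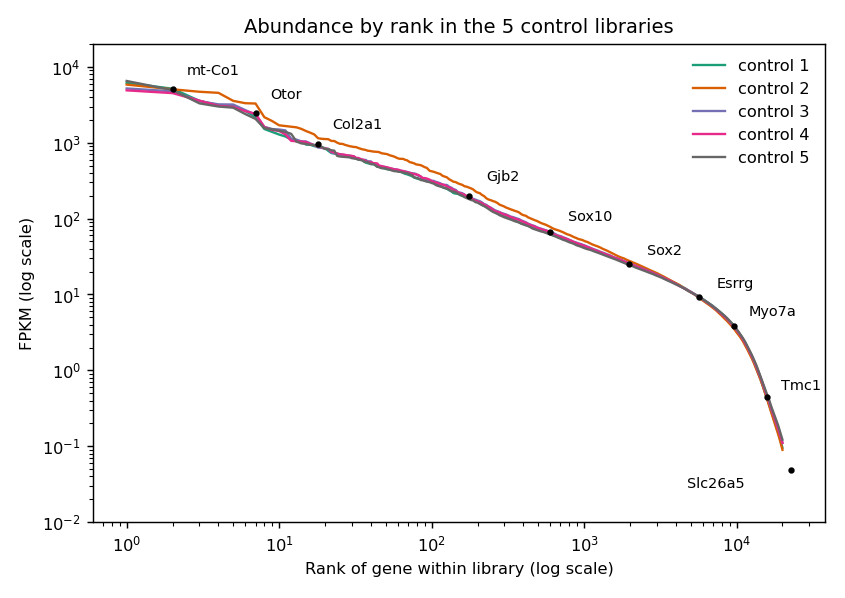
FPKM (log scale) against the rank of a gene within its library (log scale), with 1 line per control library and dots for 10 genes at their rank and mean over the 5 libraries. The lines lie on each other except that of control 2, which is the highest of the 5 from rank 3 through the upper ranks and not at ranks 1 and 2; Otor and Col2a1 sit among the top 20, Esrrg near 9 FPKM and the hair cell genes Myo7a and Tmc1 further down at 3.79 and 0.446 FPKM.

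Detection was broad. At a threshold of 1 FPKM, 12828 genes (23.5% of all) passed in every control library, and of the nuclear protein-coding genes 12054 of 21982 did (54.8%). At 10 FPKM the numbers were 4627 of all genes (8.48%) and 4519 of the protein-coding genes (20.6%). A mean of at least 100 FPKM was reached by 362 genes and one of at least 1000 FPKM by 17, of which 11 passed 1000 FPKM in all 5 libraries. The median of the 13756 genes with a mean of at least 1 FPKM was 7.12 FPKM. No count in any control library was found for 23899 genes (43.8%).

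At the top of the ranking stood a short noncoding gene, mitochondrial messages and the machinery of translation. First came Gm23935 (ENSMUSG00000076258; GRCm38 chromosome 16, 11144125 to 11144181), annotated as a miRNA gene with 57 bases of exon, at 5552 ± 877 FPKM. Its values of 6150, 5833, 4762, 4505 and 6512 FPKM came from 9305 to 15074 counts, and its whole sequence also lies, without a mismatch, in Gm24270. Division by so short a length lifts the FPKM, and by counts it was not among the top 20. Second was mt-Co1, the mitochondrially encoded first subunit of cytochrome c oxidase, at 5145, 5055, 5188, 4896 and 4932 FPKM from 274104 or more counts. Its libraries lay within a CV of 2.54%, where CV is the SD over the mean. After these came Eef1a1, which brings aminoacyl-tRNA to the ribosome, at 3566, 4693, 3531, 3587 and 3300 FPKM, with control 2 above the rest. The exons of Eef1a1 and mt-Co1 overlap those of small annotated genes.

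Of the 20 most abundant genes, 7 were mitochondrially encoded and 6 coded for cytosolic ribosomal proteins. The mitochondrial genes were mt-Co1, mt-Nd1 (3176 ± 225 FPKM), mt-Cytb (3091 ± 163), mt-Nd6 (1534 ± 226), mt-Nd5 (1442 ± 270), mt-Nd2 (1429 ± 141) and mt-Nd4 (1075 ± 73.4). The gene mt-Nd6 lies on the opposite strand from the others and overlaps mt-Nd5, so without stated use of strand reads in the bases that both share cannot be told apart. In control 2 mt-Nd6 was highest and mt-Nd5 lowest of the 5 libraries. The ribosomal genes were Rplp1 (2966 ± 888 FPKM), Rps3a1 (1167 ± 296), Rplp0 (1122 ± 224), Rpl36 (1077 ± 290), Rpl17 (1014 ± 192) and Rps15 (962 ± 259), each highest in control 2. Of the top 100 genes, 46 were cytosolic ribosomal proteins, 7 mitochondrial proteins and 5 collagens. Neighbours in the top 20 were mostly not separable, since the ranges of 17 of the 19 neighbouring pairs overlapped and only 4 pairs kept their order in all 5 libraries. In the libraries labelled cKO, 19 of these 20 genes were again in the top 20.

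The most abundant message tied to the ear was Otor (ENSMUSG00000027416; chromosome 2, 143078473 to 143081713), which codes for otoraplin, a small secreted protein of the cochlea. It ranked seventh of all genes at 2176, 3315, 2346, 2409 and 2058 FPKM, the highest value again in control 2. The imprinted noncoding RNA H19, transcribed from the maternal copy in embryonic tissues, lay at 1206, 1657, 1452, 1287 and 1443 FPKM. Hbb-bs, an adult beta globin of red blood cells, lay at 781, 2169, 525, 559 and 1554 FPKM and was the most variable of the 20. Col2a1, the fibrillar collagen of cartilage, lay at 941, 852, 1098, 1057 and 883 FPKM, and Tpt1, a growth-related translationally controlled protein, at 931 ± 198 FPKM.

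When mitochondrially encoded genes, ribosomal proteins and genes under 200 bases were set aside, the next genes were matrix and secreted proteins beside housekeeping genes. They included Sparc, a collagen-binding matrix protein, at 784 ± 45.1 FPKM, Ptn, the growth factor pleiotrophin, at 772 ± 135 FPKM, and Col9a2, a collagen chain that coats type II fibrils, at 710 ± 78.5 FPKM. Oc90, otoconin-90, the main protein of otoconia in the vestibular organs, lay at 716, 785, 613, 660 and 586 FPKM. Sparcl1, a matrix protein related to Sparc, lay at 591 ± 65.3 FPKM and Fstl1, a secreted follistatin-like protein, at 618 ± 47.4 FPKM. Eef2 (874 ± 48.3 FPKM), the elongation factor that moves the ribosome along, had the lowest CV of these at 5.52%. CT010467.1, annotated as ribosomal RNA and overlapping other annotated genes, stood at 537 ± 44.3 FPKM after poly(A) selection.

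By class, nuclear protein-coding genes held 88.3 ± 0.475% of the summed FPKM. The 13 mitochondrially encoded protein genes held 5.81 ± 0.315%, nuclear small and ribosomal RNA genes 2.40 ± 0.367%, long noncoding RNA 1.78 ± 0.0758% and pseudogenes 1.09 ± 0.0893%. Of counts, which are not divided by length, nuclear protein-coding genes held 96.1 ± 0.0696% and small and ribosomal RNA genes 0.175 ± 0.0148%. Among families, cytosolic ribosomal proteins took 11.6 ± 1.73% of the summed FPKM, with 14.7% in control 2 and 10.8 to 11.0% in the other 4 libraries. Nuclear genes of oxidative phosphorylation, the respiratory chain and ATP synthase, took 1.91 ± 0.228%, with 2.31% in control 2 and 1.81% on average without it. All 82 ribosomal protein genes and 89 of 90 oxidative phosphorylation genes at 1 FPKM or more were highest in control 2, where 39.0% of all genes at that level were.

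Collagens took 1.71 ± 0.182% of the summed FPKM and 3.57 ± 0.271% of the counts, and 37 of 44 had a mean of at least 1 FPKM. Heat shock proteins and their partners took 0.809 ± 0.0275%, tubulins and actins 0.856 ± 0.0563%, histones 0.461 ± 0.0581% and the 12 globin genes 0.655 ± 0.372%. The globin share was the least even of these, at 0.508, 1.10, 0.312, 0.350 and 1.00% in control libraries 1 to 5. Keratins, the filaments of surface epithelia, took 0.0300 ± 0.00238%, with 8 of 50 genes at 1 FPKM or more. Families of other organs were nearly silent. Of 2010 olfactory, vomeronasal and taste receptor genes 1 reached 1 FPKM, Olfr289-ps1, of 82 defensins 1 did, Defb25, and of 58 keratin-associated proteins of hair none did.

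**Figure D2:**
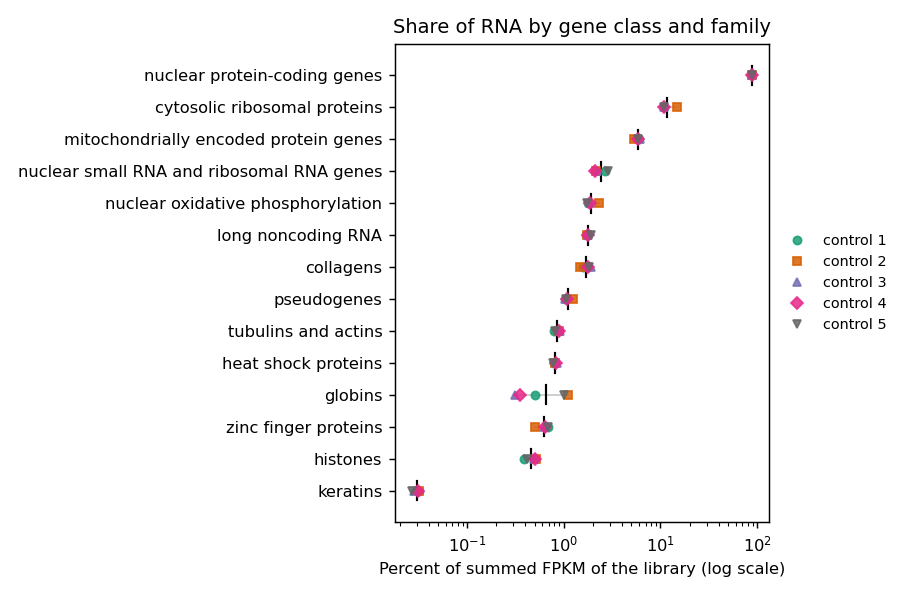
Percent of the summed FPKM of a library (log scale) held by each gene class or family, with 1 point per control library, a black tick at the mean of the 5 and a grey line over their range. Families overlap the classes above them. Points of a family mostly coincide; ribosomal proteins at 14.7% in control 2 against 10.8 to 11.0%, and globins from 0.312 to 1.10%, are spread wider.

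Levels differed widely among the mitochondrial messages. Apart from mt-Nd4, which has a copy of 100% identity over 64% of its length, the genes at 1429 FPKM or more had no annotated copy above 97.6% identity over their whole length. A shorter pseudogene, Gm29216, matches a part of mt-Co1 at 99.8%. The genes mt-Co2 (39.5 FPKM), mt-Co3 (45.1), mt-Atp6 (33.5), mt-Nd3 (6.42) and mt-Nd4l (12.2) each have an annotated nuclear pseudogene with 99.7 to 100% identity. Those pseudogenes stood at higher values than their genes, except Gm28437, a copy of mt-Co3, which was lower at 30.8 FPKM. Among the higher ones were Gm28661 at 46.0 FPKM, a copy of mt-Co2, and Gm28438 at 58.6 FPKM, a copy of mt-Nd3. How reads that fit both places were counted is not given in the sources used here, so the levels of these 5 genes and of their copies are uncertain. For the lowest member, mt-Atp8 at 2.90 FPKM, no such copy was found among annotated transcripts, its best pseudogene match being 81.4% identical. Copies outside the annotation were not sought. The uncertainty also holds for Hba-a1 and Hba-a2, which are 99.8% identical, for Rplp0 and its pseudogene Gm8730 (428 FPKM, 98.7% identical), and for Rpl41 and the short pseudogene Gm10736 (182 FPKM, 100%).

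Long noncoding RNAs were led by H19. Next came Gm10076 at 519 ± 143 FPKM, which is 99.5% identical to Rpl41, then 2410006H16Rik at 120 ± 33.4 FPKM and 2900097C17Rik at 96.8 ± 3.28 FPKM. Xist followed at 57.8, 30.9, 81.1, 82.8 and 86.0 FPKM, and control 2 was the lowest. Snhg8 (49.0 ± 13.8 FPKM) and Gas5 (41.3 ± 7.51 FPKM), both hosts of small nucleolar RNAs, were among the first 10. Of 9680 genes of this class, 555 reached a mean of 1 FPKM.

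Cell types were read from lists of marker genes. In bulk tissue a list's level depends on how many cells of a type there are and how much RNA each holds, and these cannot be told apart. Over all genes 23.5% passed 1 FPKM in every library, and over protein-coding genes 54.8%. These shares are the background for the counts below. The 23 cell type lists differed widely in their median FPKM, from 68.4 ± 8.00 for fibroblasts and 68.3 ± 29.4 for cartilage to 0.149 ± 0.0418 for skeletal muscle.

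**Figure D3:**
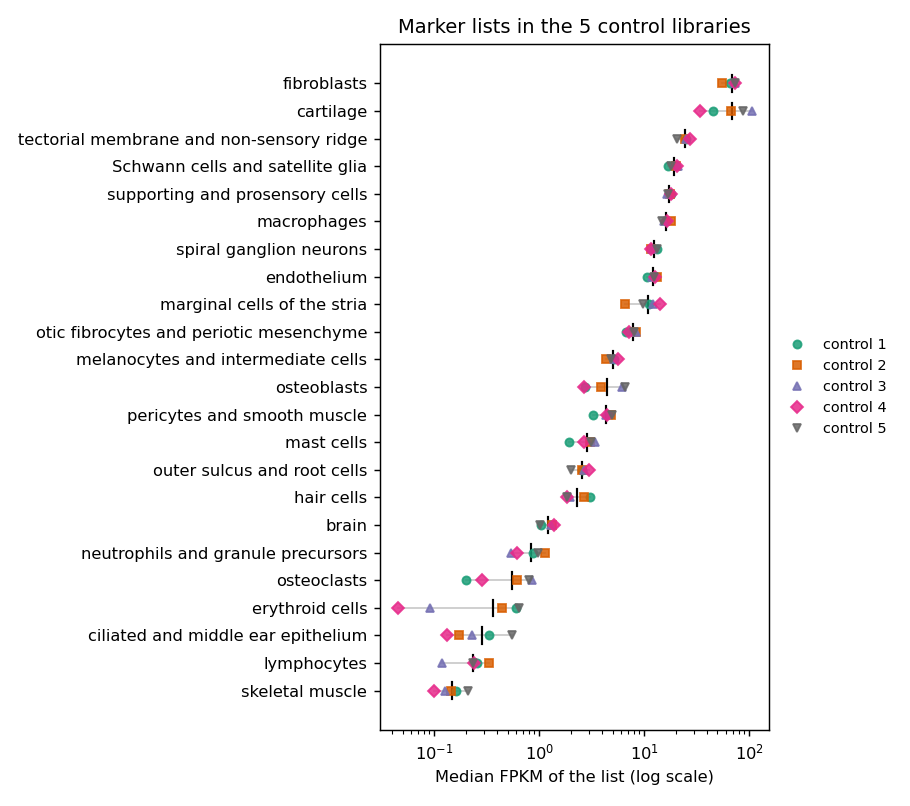
Median FPKM (log scale) of each of the 23 cell type marker lists, with 1 point per control library, a black tick at the mean of the 5 medians and a grey line over their range. Fibroblast and cartilage lists lie highest, near 68 FPKM, and hair cells at 2.27 FPKM below glia, supporting cells and neurons; cartilage and erythroid cells are among the widest.

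Connective tissue carried the most marker RNA. Fibroblast genes had 19 of 20 members at 10 FPKM or more in every library, against 8.48% of all genes, and summed to 2780 ± 187 FPKM. After Sparc they were led by the type I collagen chain Col1a2 (369 ± 27 FPKM), the small proteoglycan Ogn (271 ± 22), Col3a1 (245 ± 20) and lumican, Lum (215 ± 8.7). The exception was dermatopontin, Dpt, at 0.611 ± 0.31 FPKM. Cartilage genes summed to 3764 ± 318 FPKM, with 14 of 17 at 1 FPKM or more in every library, and were led by Col2a1, Col9a2, Col9a1 (557 ± 55.4 FPKM), Col9a3 (388 ± 73) and Col11a2 (263 ± 41). Cnmd, chondromodulin, an inhibitor of vessel growth in cartilage, lay at 255 ± 37 FPKM. Osteoblast genes were lower, with 8 of 12 at 1 FPKM or more in every library, led by Spp1, osteopontin, at 192 ± 40 FPKM, while the osteocalcin gene Bglap lay at 0.258 ± 0.38 FPKM.

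Fibrocytes of the lateral wall and the mesenchyme around the ear had the second highest sum, 3464 ± 516 FPKM, of which Otor alone made 71.0%. The median of this list was only 7.79 ± 0.750 FPKM, below those of supporting cells, glia and neurons. Car3, a carbonic anhydrase, lay at 347 ± 55 FPKM, the gap junction genes Gjb2 and Gjb6 at 201 ± 15 and 35.4 ± 2.3 FPKM, and Pou3f4, the transcription factor of the otic mesenchyme, at 178 ± 28 FPKM. Coch, cochlin, a matrix protein of the inner ear, lay at 125 ± 9.1 FPKM and Tbx18 at 84.7 ± 5.3 FPKM. Otos, otospiralin, another secreted product of cochlear fibrocytes, was low at 1.98 ± 0.74 FPKM, so the order within the list was not uniform.

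Among the lists of the sensory epithelium, those of supporting cells and of the tectorial membrane had medians of 17.4 and 24.6 FPKM, above that of hair cells. Supporting and prosensory genes had 19 of 20 members at 1 FPKM or more in every library. Of these Sparcl1, given above, made 60.2% of the sum of the list. Matn4, a matrilin, lay at 120 ± 19 FPKM, the cell cycle inhibitor Cdkn1b at 31.2 ± 1.6 and Sox2, a factor of the prosensory domain, at 25.5 ± 4.3 FPKM. The Notch ligand Jag1 lay at 17 ± 1.7 FPKM and the progenitor receptor Lgr5 at 3.14 ± 0.49 FPKM. Genes of the tectorial membrane and the ridges beside the organ of Corti had 10 of 12 members at 10 FPKM or more. Tecta and Tectb, the tectorins that build the membrane, lay at 174 ± 34 and 111 ± 18 FPKM, and Epyc, a small proteoglycan, at 215 ± 20 FPKM. Epyc is also a member of the cartilage list. Ceacam16, a tectorial component that appears later in development, lay at 0.231 ± 0.068 FPKM.

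Hair cell genes were low, with a median of 2.27 ± 0.557 FPKM and 14 of 21 members at 1 FPKM or more in every library. The list was led by Cib2, a calcium-binding partner of the transduction channel, at 30.6 ± 5.8 FPKM, and Myo6, a minus-end-directed myosin, at 15.4 ± 1.7 FPKM. The exons of Cib2 overlap those of Sh2d7. The lineage factors Pou4f3, Gfi1 and Atoh1 lay at 5.29 ± 1.7, 2.33 ± 0.96 and 1.47 ± 0.22 FPKM, the motor Myo7a at 3.79 ± 0.74 and otoferlin, Otof, of the hair cell synapse at 3.71 ± 0.7 FPKM. In every library 6 of the 21 members stayed under 1 FPKM. Among these were the bundle and channel genes Pcdh15 at 0.562 ± 0.12, Tmc1 at 0.446 ± 0.13 and Strc at 0.596 ± 0.21 FPKM. Since Cib2, tied to the same channel, was the highest member, bundle and channel genes were not uniformly low. Slc26a5, prestin, the motor of mature outer hair cells, had 6, 0, 8, 2 and 13 counts.

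Neurons and glia were well represented. All 23 spiral ganglion neuron genes passed 1 FPKM in every library, led by the ubiquitin hydrolase Uchl1 (137 ± 27 FPKM), the neuronal tubulin Tubb3 (79.6 ± 8.1), the neurofilament gene Nefm (62.7 ± 2.6) and the growth cone gene Gap43 (53.5 ± 8.1). The list summed to 730 FPKM in control 2 and to 596 to 612 FPKM in the other libraries, in which the summed FPKM of all genes was also lower. As a share of the summed FPKM it was even, at 0.215 ± 0.00173%. Schwann cell and satellite glia genes had 16 of 17 members at 1 FPKM or more. Fabp7 lay at 109 ± 34 FPKM, S100b at 98.1 ± 15, Pmp22 at 87.7 ± 5.9 and Sox10, the factor of the glial and melanocyte lineages whose regulatory sequence drives Cre in the other genotype, at 66.5 ± 8.4 FPKM.

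Of the stria vascularis, marginal cells showed all 13 of their genes at 1 FPKM or more. The potassium cotransporter Slc12a2 lay at 94.4 ± 11 FPKM, the sodium pump subunit Atp1b2 at 39.8 ± 6.3, and Kcne1 and Kcnq1, which form the channel that secretes potassium into the endolymph, at 26.6 ± 4.6 and 12 ± 2.4 FPKM. Esrrb, a relative of Esrrg, lay at 22.5 ± 3.9 FPKM. Melanocyte and intermediate cell genes had 13 of 15 members at 1 FPKM or more, led by Ednrb (82.9 ± 9.1 FPKM), Pmel (29.1 ± 4.1) and Dct (27.2 ± 3.0). The pigment enzyme Tyrp1 and the transporter Oca2 were at 0.257 ± 0.089 and 0.248 ± 0.091 FPKM, below Tyr at 6.10 ± 0.88 FPKM. Outer sulcus genes were lower, with a median of 2.57 ± 0.368 FPKM. In this list Slc26a4, the anion exchanger pendrin, lay at 7.43 ± 0.94 FPKM and Foxi1, a factor of the endolymphatic sac, at 0.00234 ± 0.0052 FPKM.

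Vessels and immune cells were also present. All 16 endothelial genes passed 1 FPKM, among them Cldn5 (40.2 ± 11 FPKM) and Cdh5 (27.3 ± 4.1), the claudin and cadherin of endothelial junctions. Of 16 macrophage genes 15 did, with Pf4 and the complement genes C1qa and C1qb between 33.6 and 33.8 FPKM. Mural cell genes were led by Rgs5 and Mcam, both at 42.3 FPKM, while the smooth muscle genes Myh11 and Tagln lay under 1 FPKM. Erythroid genes were carried by the globins and Alas2, the first enzyme of heme synthesis, at 14.3 ± 6.36 FPKM, while 8 of the 13 measured stayed under 1 FPKM in every library. Mast cell genes had 4 of 6 members at 1 FPKM or more, with Tpsb2 at 6.21 ± 0.91 FPKM.

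Of cells that the dissection could have carried along, skeletal muscle and lymphocytes had few markers above 1 FPKM, and neutrophils and brain had more. The background was 23.5% of all genes and 54.8% of protein-coding genes. Pituitary and middle ear genes that were high in single control libraries, such as Pomc, Gh and Bpifa1, are given in the closing sections. Of 12 skeletal muscle genes 1 passed 1 FPKM in every library, with Actn3 the highest at 1.08 ± 0.062 FPKM and Tnnc2 without a count. Of 12 lymphocyte genes 1 passed, and the list summed to 5.73 to 10.8 FPKM. Of 10 neutrophil genes 3 did, led by S100a9 at 4.8 ± 1.9 FPKM. Brain genes had 5 of 12 members at 1 FPKM or more. Ttr, transthyretin, was the highest of them at 20.8, 37.8, 13.8, 14.7 and 18.8 FPKM, Bcan lay at 10.5 ± 2.4 FPKM, and Gabra6 of cerebellar granule cells had no count. Of genes known from the vestibular organs, Oc90 was given above and Otol1, otolin, lay at 13.9 ± 3.0 FPKM. Otol1 is also a member of the list of the tectorial membrane and ridges. Whether the RNA of these genes came from vestibular tissue was not tested.

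The list of 93 deafness genes, whose variants cause hearing loss in people or mice, showed how many of them can be read in whole cochlea at this age. Of these, 77 passed 1 FPKM in every library and 27 passed 10 FPKM, while 12 stayed under 1 FPKM in all 5. The highest were Actg1, the gamma actin of hair bundles, at 454 ± 50 FPKM, Col11a2, Gjb2, Crym, a thyroid hormone binding protein of fibrocytes, at 198 ± 32 FPKM, Pou3f4, Tecta and Coch. Slc26a5, given above, was among those under 1 FPKM. The summed level of the list had a CV of 5.37%.

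Other function lists were read in the same way. All 25 proliferation genes passed 1 FPKM in every library, with Pcna, the replication clamp, at 47.6 ± 10 FPKM, Top2a at 14.1 ± 2.5 and Mki67 at 10.4 ± 2.0 FPKM. The sum was 200 FPKM in control 1 and 299 FPKM in control 2. After H19 the imprinted genes were led by Cdkn1c, a cell cycle inhibitor, at 270 ± 57 FPKM, Nnat at 133 ± 27 and Mest at 87.9 ± 6.7 FPKM. Immediate early genes, which rise within minutes of a stimulus or of handling, were led by Jund (42.5 ± 10 FPKM), Klf4 (39.5 ± 5.4) and Ier2 (36.6 ± 9.3), while Fos lay at 1.80 ± 0.32 and Fosb at 0.0794 ± 0.036 FPKM. Among 30 otic transcription factors 24 passed 1 FPKM in every library. After Pou3f4 and Tbx18 came Sox10 and Sox9 (34.2 ± 5.8 FPKM), and the placodal factors Pax8 and Neurog1 lay under 0.01 FPKM.

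Variation among the 5 libraries was measured as the CV of FPKM in 5322 genes with a mean of at least 10 FPKM and at least 100 counts. The median CV was 11.5%, with 50% of genes between 7.36 and 17.5%, where counting noise alone would give a median of 1.77%. Without control 2 the median fell to 5.83%, and without any one of the others it lay between 11.8 and 12.7%. For 69.0% of these genes control 2 was the library farthest from the median. The edgeR biological coefficient of variation, fitted over 16657 genes, was 17.3% and fell to 11.3% without control 2.

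**Figure D4:**
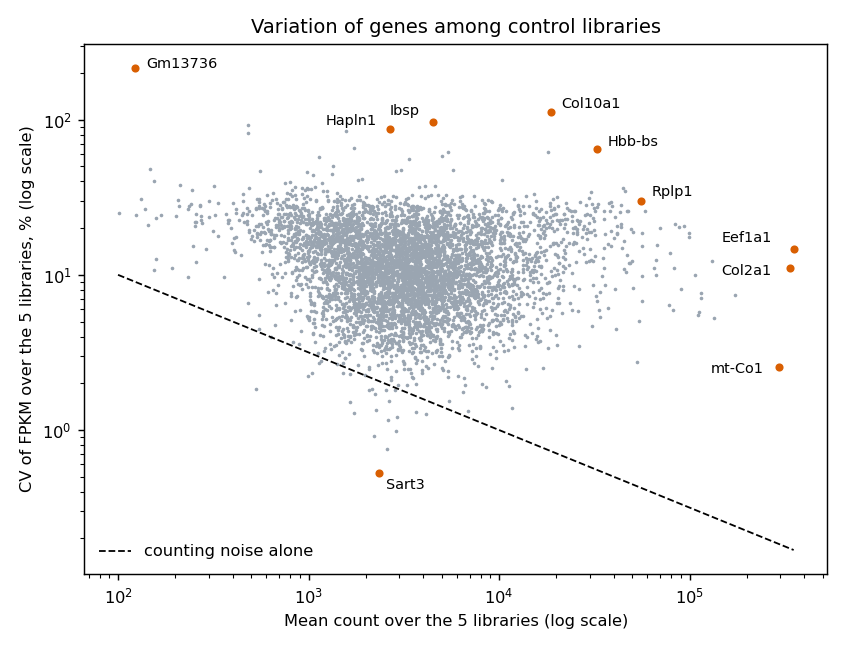
CV of FPKM over the 5 control libraries (percent, log scale) against mean count (log scale) for 5322 genes, each a point, with 10 named genes in orange and the CV that counting noise alone gives as a dashed line. Nearly all genes lie above the line; Gm13736, Col10a1, Ibsp and Hapln1 lie at the top, and Sart3 at 0.529% lies under it.

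A CV of 50% or more was found for 15 genes, and these were mostly genes of growing cartilage and bone and globins. The gene inside this edge was mt-Co3 at 50.3% and the one outside was mt-Tl2 at 48.4%. Col10a1 (ENSMUSG00000039462; chromosome 10, 34389981 to 34397085), the collagen of hypertrophic chondrocytes, lay at 35.9, 112, 192, 1.78 and 444 FPKM. Control 4 was lowest, with 202 counts, and control 5 highest, with 54945. The exons of Col10a1 overlap those of Nt5dc1. Ibsp, the bone sialoprotein of mineralising matrix, lay at 25.4, 44.1, 52.0, 12.01 and 152 FPKM, with the same libraries at the ends.

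Other matrix genes of growth cartilage followed the same low end but were highest in control 3. Comp lay at 6.52, 11.4, 32.3, 1.57 and 19.4 FPKM, Hapln1, the link protein that ties aggrecan to hyaluronan, at 5.63, 10.7, 29.8, 1.91 and 13.8 FPKM, and Snorc, a chondrocyte proteoglycan, at 6.09, 19.8, 36.4, 0.612 and 27.4 FPKM. Acan, the core protein aggrecan, lay at 11.3, 10.6, 34.6, 9.86 and 30.1 FPKM. Ihh, the signal from prehypertrophic chondrocytes, which is below 10 FPKM on average, lay at 2.74, 5.29, 12.2, 0.181 and 13.2 FPKM. Unlike these matrix genes, it was highest in control 5. Col2a1, Col9a1 and Cnmd were far steadier, with CVs of 11.1, 9.96 and 14.5%. Of the cartilage list 8 of 17 members were lowest in control 4, against 13.9% of all genes at 1 FPKM or more, and 9 of 17 were highest in control 3, against 10.1%. Of osteoblast genes 6 of 8 were lowest in control 4 and 7 of 8 highest in control 5, against 17.7% of all genes. The summed osteoblast list, at 214, 314, 284, 209 and 467 FPKM, also had its lowest value in control 4, and its part in the cartilage values was not tested.

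The globins varied in another order. Hba-a1 lay at 413, 1055, 264, 297 and 886 FPKM, Hbb-bt at 184, 350, 76.1, 99.7 and 223 FPKM and Alas2 at 14.4, 20.6, 8.14, 7.75 and 20.7 FPKM, and like Hbb-bs they were high in controls 2 and 5 and low in controls 3 and 4. The embryonic globins Hbb-y, Hba-x and Hbb-bh1 stayed at 0.109 FPKM or less on average.

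**Figure D5:**
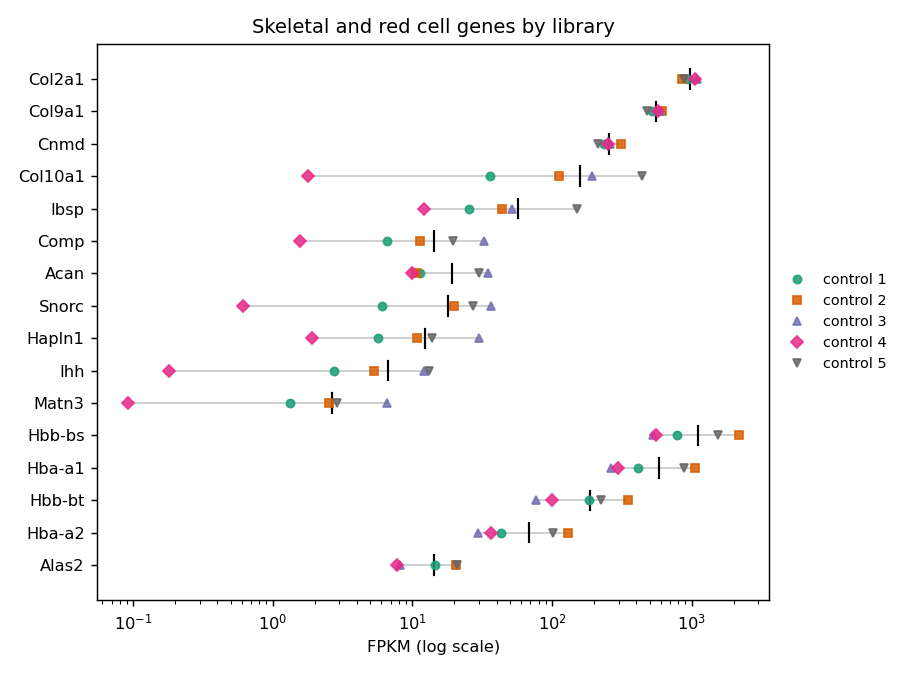
FPKM (log scale) of 16 skeletal and red cell genes, with 1 point per control library, a black tick at the mean of the 5 and a grey line over their range. Col2a1, Col9a1 and Cnmd vary little, Col10a1 runs from 1.78 in control 4 to 444 in control 5, and the 4 globins are highest in control 2 and lowest in control 3.

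The same measure was taken within the 5 libraries labelled cKO, which the choice of these genes did not use. All 15 of the most variable control genes lay in the top 5% of CV there as well. Col10a1 ran from 1.79 to 39.7 FPKM and Snorc from 0.932 to 21.8 FPKM among those libraries. Over the whole upper tail the sharing was looser, since 61 of the 266 genes in the top 5% of controls (22.9%) were also in the top 5% there. Across the 5322 genes the rank correlation of the CVs was 0.331, and the median CV within the libraries labelled cKO was 7.72%.

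The 15 genes of lowest CV had mean levels between 10.6 and 80.1 FPKM. Sart3 (chromosome 5, 113742446 to 113772510), a splicing recycling factor, had the lowest CV, 0.529%, with 10.9, 10.8, 10.9, 10.8 and 11.0 FPKM. Sumf1, which activates sulfatases, lay at 19.9, 19.8, 19.99, 19.8 and 20.2 FPKM, and Prcp, a lysosomal carboxypeptidase, at 10.6, 10.7, 10.6, 10.5 and 10.5 FPKM. Among the 15 lowest were also Nt5c2, Kctd5, Arfip2, Rfk, Serinc3 and Pabpn1, with CVs of 1.54% or less. For 12 of the 15 the CV was below that of counting noise alone, which was so for 25 of all 5322 genes. In the libraries labelled cKO, 7 of the 15 were in the lower 50% of CV and 1, Prcp, in the lowest 5%. Without control 2 only 2 of the 15 stayed among the 15 lowest.

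Of genes often used as references, the 17 that met the abundance limits had a median CV of 16.8%, against 11.5% for all genes measured. Without control 2 it was 5.58%, against 5.83% for all. Actb, the cytoplasmic beta actin, lay at 449 ± 74 FPKM, Gapdh at 225 ± 29 FPKM and Hprt at 40.3 ± 10 FPKM. Across lists, the median CV was 7.64% for fibrocyte genes, 10.1% for supporting cell genes, 10.9% for glia, 12.2% for fibroblasts, 15.2% for neurons, 17.3% for cartilage and 62.3% for erythroid genes. Without control 2 the order changed, with neurons the lowest of these at 6.33%, fibrocytes at 7.16, glia at 7.93, supporting cells at 8.45, fibroblasts at 9.24, cartilage at 15.1 and erythroid genes at 56.1%. Cytosolic ribosomal proteins fell from 24.6 to 3.19% when control 2 was left out.

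Promoters were read as a property that the ranking did not use. Of the nuclear protein-coding genes, 16512 matched a RefSeq promoter (build GRCm38.p6) by symbol, with 1 start per gene, the first listed. The letters TATAAA were searched on the coding strand in the 20 bases that lie 40 to 21 bases before the start, where a TATA box usually lies. They stood there in 2.67% of all promoters. The share was 5.14% of genes under 1 FPKM, 1.12% from 1 to 10 FPKM, 0.700% from 10 to 100 FPKM and 4.14% (11 of 266) at 100 FPKM or more. The ratio of observed to expected CpG over the 300 bases had a median of 0.212 in genes under 1 FPKM and between 0.747 and 0.802 in the 3 higher classes. Within the genes of the variation measure, TATAAA stood in 0.922% (38 of 4121), in 2.18% (9 of 412) of the tenth with the highest CV and in 0.728% of the tenth with the lowest.

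A start that begins with C and 4 further C or T, within 5 bases of the listed start, is known from ribosomal protein genes. It was found in 45.3% of their promoters (29 of 64), against 18.97% of all promoters and 30.1% of those at 100 FPKM or more. Of collagens 12 of 35 had it, and of nuclear oxidative phosphorylation genes 21 of 74. Among the lists examined it stood in 7 of 12 cartilage, 5 of 9 erythroid, 5 of 13 neuron and 5 of 17 hair cell promoters. The fibroblast and reference lists each had it in 3 of 14. The sequences below show the 50 bases before the start for a top-ranked ear gene, a variable cartilage gene, 2 globins and 2 of the 15 genes of lowest CV, on the strand of the gene, with TATAAA in capitals where it lies in the window.
Otor, chr2:143078343-143078392, plus strand: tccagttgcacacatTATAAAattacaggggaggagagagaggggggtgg
Col10a1, chr10:34389931-34389980, plus strand: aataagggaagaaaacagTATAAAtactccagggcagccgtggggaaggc
Hbb-bt, chr7:103813924-103813973, minus strand: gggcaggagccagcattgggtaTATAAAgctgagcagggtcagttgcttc
Hbb-bs, chr7:103827929-103827978, minus strand: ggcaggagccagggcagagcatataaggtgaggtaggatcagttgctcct
Sumf1, chr6:108185584-108185633, minus strand: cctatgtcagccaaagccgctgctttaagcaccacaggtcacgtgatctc
Rfk, chr19:17393993-17394042, plus strand: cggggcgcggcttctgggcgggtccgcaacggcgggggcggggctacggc
In Otor, Col10a1 and Hbb-bt the motif starts 35, 32 and 28 bases before the listed start, while in Hbb-bs, Sumf1 and Rfk these 6 letters are not in the window. Rfk, the riboflavin kinase at 37.0 ± 0.483 FPKM, has a CpG ratio of 0.977 and Otor one of 0.121. A match describes letters and not a bound site.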

How the data were processed

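Cochlear soft tissue of 10 female mice was sequenced, 5 of them controls. Per the labels' protocols, RNA was extracted with the SPLIT kit, polyadenylated RNA was enriched, and paired 150 bp reads were taken on an Illumina instrument. The authors deposited whole-number counts per gene and FPKM values. Per the submitters' processing notes, STAR 2.5, HTSeq 0.61, DESeq2 2 and build mm10 were used, with no roles given. Strand, annotation and filters are not given in the sources used here. The deposited FPKM equalled the deposited count over a gene length and a library factor, within 0.992 to 1.04 of the library total. That length matched the merged exons of GENCODE M21 within 0.1% for 95.3% of 14147 genes, so symbols, classes and coordinates (GRCm38) were taken from it. Of the 54532 gene IDs, 37 were not matched and took 0.00792% of the counts. In the other direction, 1041 genes of GENCODE M21 had no deposited values, 1024 of them on chromosomes 17 to 19. Ranks, detection and shares leave these genes out.

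From these values means, SDs, shares, ranks and CVs were computed over the 5 libraries labelled control (Python 3.11.15, pandas 2.3.3). No group was tested against another. TMM factors and the biological coefficient of variation came from edgeR 4.0.16 with an intercept only, and size factors from DESeq2 1.42.0 (R 4.3.3). Near copies were sought with blastn 2.17.0 among GENCODE M21 transcripts. On simulated counts for 5 libraries and 13636 genes, the CV ranking recovered 93.5% of 200 genes whose CV was set to 50% among others at 10%. Those counts held no shift of a whole library like that of control 2, and no FPKM limit was set. The share recovered therefore does not carry over to the ranking of the real genes. Named genes were the 20 highest by mean FPKM, the leading and defining members of each list, the 15 highest and 15 lowest CVs, the 10 highest noncoding RNAs, the leaders of each family, reference genes, Esrrg, Sox10 and Xist. Further genes, such as those after the top 20 and those high in few libraries, were chosen after their values were seen. The members and lists were chosen with earlier results of these data known. Exons overlap those of another gene for 34.9% of genes at 1 FPKM or more, and where the overlap bears on a value it is named. Some list members are not reported here. Promoter sequences are RefSeq's. Precision is limited by 5 animals rather than by depth for all but the lowest genes. The alternatives were other scalings, thresholds and filters, and each library left out in turn.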

Additional observations from a re-analysis of the deposited data

Results flagged for a closer look

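Of 99 shares, list sums, library measures and named genes examined over the 5 control libraries, 27 had 1 library far from the other 4. Chance marks about 1 in 20 such groups of values, but no share by chance applies to these 99, since some of the genes were named because 1 or a few libraries stood apart. Control 2 was that library in 19 cases, control 5 in 6, and controls 1 and 4 in 1 each. Many of the cases share genes and are not independent.

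In control 2, cytosolic ribosomal proteins took 14.7% of the summed FPKM (10.8 to 11.0% elsewhere), nuclear oxidative phosphorylation genes 2.31% (1.75 to 1.87%) and pseudogenes 1.25% (1.03 to 1.09%). The summed FPKM of all genes was 335389, and 442 genes held 50% of it. The list sums were 730 FPKM for spiral ganglion neurons, 9459 FPKM for reference genes and 264 FPKM for immediate early genes, each the highest of the 5. With FPKM rescaled to equal sums the SD over the libraries fell from 56.3 to 5.04 FPKM for the neuron list, from 1054 to 399 FPKM for reference genes and from 22.2 to 6.46 FPKM for immediate early genes. Among the most abundant genes, Eef1a1 stood at 4693 FPKM, Rplp1 at 4541, Otor at 3315, mt-Nd6 at 1929, Rps3a1 at 1695, Rpl36 at 1594, Rplp0 at 1520, Rps15 at 1425, Rpl17 at 1355 and Tpt1 at 1284 FPKM, all above the other libraries. In contrast mt-Nd5 stood at 968 FPKM, below 1504 to 1615 FPKM in the others.

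In control 5, Ibsp stood at 152 FPKM (12.01 to 52.0 elsewhere), the matrix protease Mmp13 at 15.4 FPKM (0.557 to 3.76), Pomc at 37.7 FPKM (0.529 to 2.95) and Bpifa1, a secreted protein of airway and middle ear epithelium, at 21.7 FPKM (0 to 0.196). The list of ciliated and middle ear epithelium, which holds Bpifa1, summed to 29.2 FPKM (7.37 to 10.8), and outer sulcus genes to 48.6 FPKM (53.5 to 55.1). In control 1, Gm13736 stood at 55.0 FPKM (0.218 to 0.686). In control 4, immune receptor segments took 0.00819% of the summed FPKM (0.00403 to 0.00484%).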

How the results depend on the processing

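No paired analysis was possible because no groups were compared. The protein features that had been planned were not run. With counts scaled to the library total, not divided by length, 9 of the 20 most abundant genes stayed, and 6 did when mitochondrially encoded genes, ribosomal proteins and genes under 200 bases were left out, an alternative chosen after seeing the data; with the median 19 did, and with 1 library left out 19 to 20. By counts 1287 genes held 50%, and the top 10 held 5.05%; without mitochondrially encoded genes the top 10 held 7.95%. At 10 FPKM 5347 genes passed on average and at 0.1 FPKM 20396. Of counts, nuclear protein-coding genes held 96.1%, long noncoding RNA 1.26%, pseudogenes 0.233%, mitochondrially encoded protein genes 2.11%, ribosomal proteins 5.53%, nuclear oxidative phosphorylation 0.946%, collagens 3.57% and globins 0.153%. These shares differ by construction, since counts are not divided by length. The 8 cell type lists with the highest medians stayed under TMM scaling, rescaled sums and each library left out, and 7 did by mean log2 values. Of 30 list sums, 29 moved by less than 1 SD under TMM scaling and 30 with FPKM rescaled to equal sums. The sum that moved further, that of marginal cells, went from 247 to 212 FPKM. TMM values were divided by annotated exon lengths, which differ from the deposited length for some genes. Scaling and length can therefore not be told apart for this sum. Leaving out 1 library of 5 cannot move a mean by 1 SD, so it does not test the list sums. The median CV was 21.8% with no filter but 1 count, 5.83% to 12.7% with 1 library left out, and the biological coefficient of variation 11.3% to 19.1%. Of the 15 highest CVs, 5 stayed with a limit of 1 FPKM, 0 with no filter, which admits low genes, and 12 to 14 with 1 library left out. Of the 15 lowest CVs, 0 stayed with FPKM rescaled to equal sums, and 2 (control 2) to 9 with 1 library left out, so their order is not stable. Depth limits only genes of few counts.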

Other observations

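Some genes were high in 1 or a few control libraries and nearly silent in the others. They were chosen after their values were seen. Pomc, the precursor of pituitary hormones, had 30, 141, 42, 44 and 1964 counts in control libraries 1 to 5, and 0.545 to 1.16 FPKM in the libraries labelled cKO. Gh, growth hormone of the anterior pituitary, lay at 0, 10.3, 0.0335, 0.0320 and 4.49 FPKM. Mmp13 and Loxl4, which act on matrix, were highest in control 5 at 15.4 and 10.9 FPKM and lowest in control 4 at 0.557 and 0.255 FPKM, as was Ihh.

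Copies of other genes also differed by library, in controls and in libraries labelled cKO. Gm13736 (chromosome 2, 87526145 to 87526397), 100% identical to Srp9 over its 253 bases, had 598, 5, 6, 2 and 3 counts in the controls and 63.4, 61.7, 0.0979, 55.9 and 0.213 FPKM in the libraries labelled cKO. Gm10020 (chromosome 15, 52477617 to 52478228), 99.7% identical to Rpl15, had 772, 942, 9, 687 and 6 counts in the controls, and 36.3 FPKM in 1 library labelled cKO against 0.0832 to 0.233 in the others. Rpl15-ps2 was high and low in the same control libraries as Gm10020, at 6.91, 7.91, 0.330, 6.48 and 0.248 FPKM.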
